A study of Sus scrofa with 12 samples.

Results

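Translation initiation factors (eIF) and elongation factors (eEF) are the proteins that load ribosomes onto mRNA and move them along it. Their genes were followed in pig embryos of Day 9 from FE and SE sows, which differed in the oestrus at which they were inseminated. The genes were chosen by symbol: every probe whose platform symbol begins with EIF1 to EIF6 or with EEF1 or EEF2 was taken, and the eIF2 kinases (EIF2AK) were left out. This gave 42 genes with 83 probes, of 11934 genes and 18110 probes that carried a symbol. In 3 of the 42, EIF2C1, EIF2C2 and EIF2C4, the symbol is an older name of the Argonaute genes AGO1, AGO2 and AGO4, which act in RNA silencing and are not translation factors. They were kept because the symbol rule takes them, but they are described apart, and 39 genes remain without them.

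Initiation begins when eIF2, bound to GTP and the initiator methionyl-tRNA, joins the small ribosomal subunit together with eIF1, eIF1A, eIF3 and eIF5. The eIF4 group (cap-binding eIF4E, scaffold eIF4G and helicase eIF4A) brings in the capped mRNA, eIF5B joins the large subunit, and eIF2B recharges eIF2 with GTP, the step that stress kinases block. During elongation eEF1A delivers aminoacyl-tRNAs, the eEF1B subunits recharge eEF1A, eEF2 translocates the ribosome, and eIF5A relieves stalls. Preimplantation embryos replace maternal with embryonic mRNA and protein, and the pig embryo is, around this age, a blastocyst that has left the zona and begins to expand before it elongates.

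FE embryos came from primiparous sows inseminated at an oestrus that had been induced during lactation, and SE (skip-a-heat) embryos from sows whose lactational oestrus was passed over and that were inseminated at the next one. Embryos of 3 sows in each group were sexed by PCR, and 5 male or 5 female embryos of 1 sow made a pool, 12 pools in all. Amplified RNA of an FE and an SE pool of the same sex was hybridised together on two-colour arrays, in 3 male and 3 female biological sets of 2 arrays each (a first array and a dye swap), 12 arrays on 3 slides. The male and the female pools shared sows, so the sets are not fully independent, and a male and a female embryo were never on 1 array. The values were the authors' log ratios of the 2 pools, read as log2. They hold no expression level, so that neither the abundance of a factor nor the presence of a cell type's markers could be checked, and fewer cells of a type could not be told apart from less RNA per cell.

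The direction between FE and SE is not settled. The labels give FE the dye Cy3 and SE the dye Cy5 on all arrays, yet the first and the swap array of a set ran against each other, with correlations over all probes of -0.149, -0.362 and -0.669 for male sets 1, 2 and 3 and of -0.303, -0.461 and -0.766 for female sets 1, 2 and 3. The signs of the swap arrays were therefore turned and the 2 arrays of a set averaged. Positive ratios below are positive on the first arrays. If all signs were exchanged, every positive value would become negative, with the same sizes and p-values. After the turn, the first and the swap array agreed over the 42 genes with r between 0.199 in female set 1 and 0.913 in female set 3, given as a description over genes that share arrays.

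**Figure D1:**
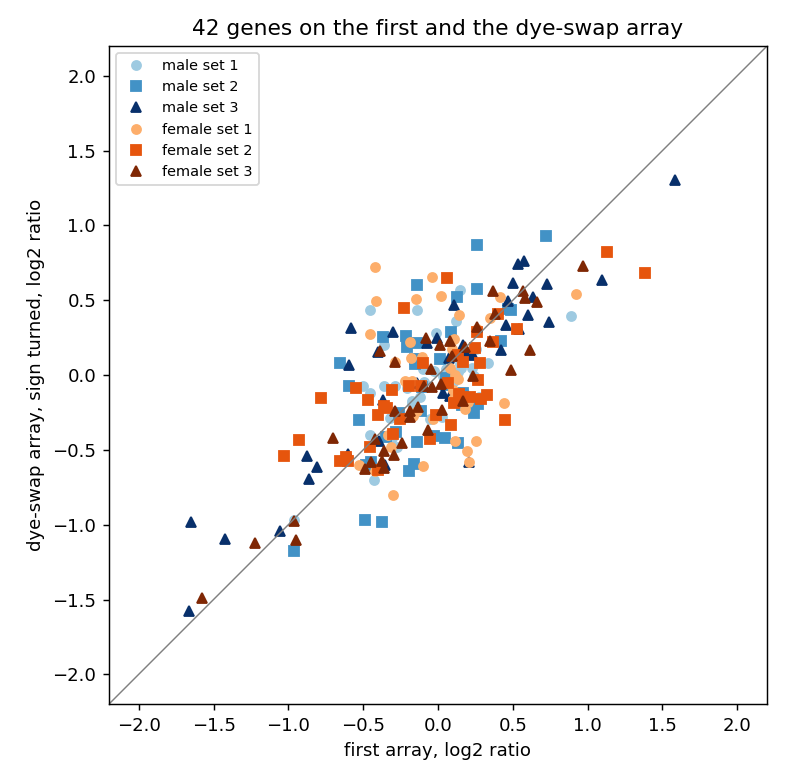
Log2 ratio of each of the 42 genes on the first array (horizontal axis) and on the dye-swap array with its sign turned (vertical axis), with 1 point for each gene and set and the line of equality. The points of male set 3 and female set 3 spread farthest, and those of male set 1 and female set 1 gather around 0, where the arrays differ most relative to the size of the ratio.

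The first question was whether the time of insemination was associated with the expression of these genes in the embryos of both sexes. No translation factor gene passed the test. Mean ratios over the sexes lay between -0.52 for EEF1E1 and 0.31 for EIF5B. Of the 42 genes, 15 were positive and 27 negative, beside 5455 and 6479 of all 11934 genes. The median was -0.05 on the log2 scale (-0.06 without the 3 Argonaute genes) against -0.01 for all 11934 genes. At an adjusted p under 0.05 (limma moderated test, Benjamini-Hochberg over all 11934 genes), 0 of 42 were called, as were 0% of all genes. Without adjustment, 1 of 42 had a p under 0.05, beside 5.04% of all genes. The 95% interval of the mean ratio lay within 2-fold for 42 of 42 genes (98.6% of all genes) and within 1.5-fold for 33 of 42 (88.9% of all genes), and for the other 9 the interval reached beyond 1.5-fold in at least 1 direction. With the signs of the swap arrays left as deposited, 15 of 42 genes were called, beside 38.2% of all genes. That mean keeps by construction whatever has 1 sign on both arrays of a set, such as a difference between the dyes, and is not used further.

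**Figure D2:**
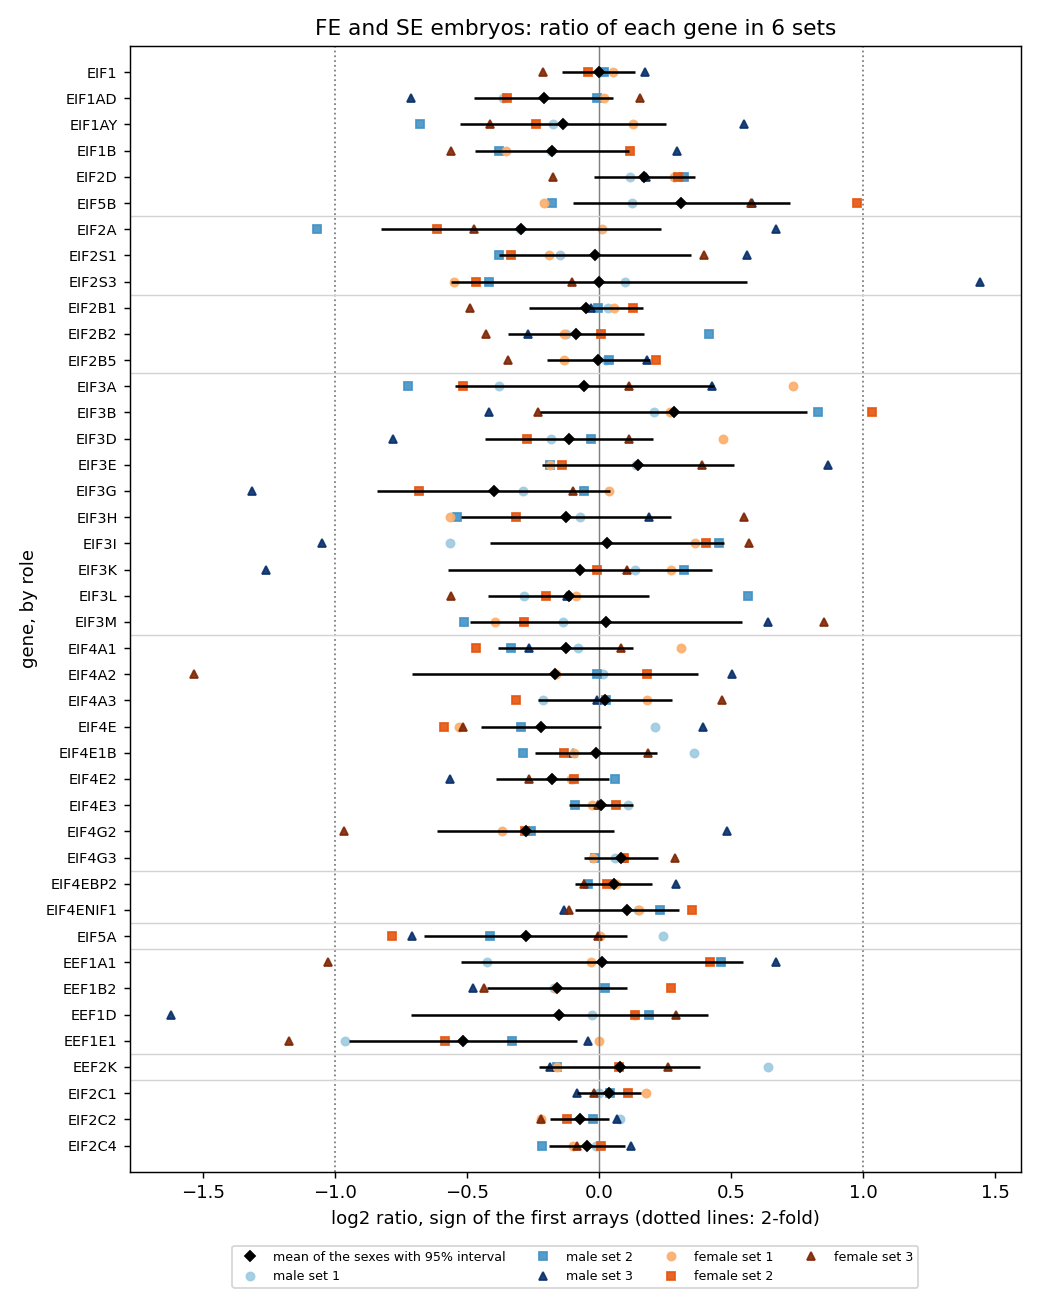
Log2 ratio of each gene in the 6 sets (coloured points: blue for male, orange for female sets), with the mean of the sexes (black diamond) and its 95% interval from limma (black line, 6 sets). Dotted lines mark 2-fold. The interval of EEF1E1 leaves out 0 before adjustment for 11934 genes, and the points scatter over more than 1.6 in EIF4A2, EIF2S3, EEF1D, EIF2A, EEF1A1 and EIF3I.

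EEF1E1 was the gene of smallest p. It codes for a small scaffold protein of the multi-enzyme complex of aminoacyl-tRNA synthetases, related in sequence to eEF1 subunits. Its log2 ratio was -0.96, -0.33 and -0.04 in male sets 1, 2 and 3 and 0.00, -0.58 and -1.17 in female sets 1, 2 and 3. The male values lay within the range of the female values, and female set 1 and male set 3 were at or near 0. The mean was -0.52 ± 0.48 (SD, n = 6 sets; 95% interval -0.95 to -0.08), and it did not pass (adjusted p = 0.948). Only 1 probe stood for this gene.

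The other 7 genes of smallest p were the cap-binding gene EIF4E, its relative EIF4E2, the eIF4G-like EIF4G2, the eIF3 subunit gene EIF3G, the eIF1A-like EIF1AD, the ribosome-joining EIF5B and EIF2D. The last codes for a factor that can place tRNA on ribosomes without eIF2 and acts in recycling. Mean ratios were -0.22 ± 0.42 for EIF4E, -0.40 ± 0.52 for EIF3G, 0.17 ± 0.19 for EIF2D, -0.28 ± 0.46 for EIF4G2, -0.18 ± 0.22 for EIF4E2, -0.21 ± 0.32 for EIF1AD and 0.31 ± 0.48 for EIF5B (SD, n = 6 sets; adjusted p = 0.954 for each). None of the 42 had 1 sign in all 6 sets, where 1.58% of all genes were positive and 2.14% negative in 6 of 6. EIF2D came nearest on the positive side, with 0.12, 0.32 and 0.18 across the male sets and 0.28, 0.30 and -0.17 across the female sets. Its 2 probes had means of 0.31 and 0.03.

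Each sex was then taken alone, with 3 sets. In male embryos 0 of 42 genes were called (limma; 0% of all genes), and 0 had an unadjusted p under 0.05, beside 2.89% of all genes. The 5 of smallest p were EIF1AD with a mean of -0.36 ± 0.35, EIF3G with -0.55 ± 0.67, EIF2D with 0.21 ± 0.11, EIF3D with -0.33 ± 0.40 and EEF1E1 with -0.45 ± 0.47 (SD, n = 3 sets; adjusted p = 1.00 for each). In female embryos 0 of 42 were called (0% of all genes), and 3 had an unadjusted p under 0.05, beside 4.66% of all genes. These were EIF4E with -0.54 ± 0.04, the Argonaute gene EIF2C2 with -0.19 ± 0.06 and EIF4G2 with -0.54 ± 0.37, followed by EEF1E1 with -0.59 ± 0.59 and EIF5B with 0.45 ± 0.60 (SD, n = 3 sets; adjusted p = 0.999 for each).

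The difference between the sexes in their FE and SE ratio called 0 of 42 genes (0% of all genes), and 2 of 42 had an unadjusted p under 0.05, beside 2.10% of all genes. EIF4E, the protein that holds the mRNA cap and is limiting for many growth-related mRNAs, had the smallest p. Its ratio was 0.21, -0.30 and 0.39 in male sets 1, 2 and 3 and -0.53, -0.59 and -0.51 in female sets 1, 2 and 3. All 3 female values lay below all male values, and male set 2 was the male value nearest to them. Male and female sets did not overlap in 7.71% of all genes. The male minus female difference was 0.65 (95% interval 0.20 to 1.10; adjusted p = 0.999). The 2 probes of EIF4E disagreed in female set 3: the 3 female values were -0.36, -0.75 and 0.29 at one and -0.70, -0.42 and -1.32 at the other. At the first of these probes the male values were 0.23, -0.48 and 0.43, so that the sexes overlapped there. At the other they were 0.20, -0.11 and 0.36, above all female values.

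EIF2C2, the slicing Argonaute, was the other gene whose male and female sets did not overlap, beside 7.71% of all genes. It had 0.08, -0.02 and 0.07 across the male sets and -0.22, -0.12 and -0.22 across the female sets, a difference of 0.23 (95% interval 0.0046 to 0.45; adjusted p = 0.999). Only 1 probe stood for EIF2C2, and its first and swap arrays did not run together over the 6 sets (r = -0.08). On the first arrays alone the sexes overlapped, and on the swap arrays alone they did not. The gene was not called in the F-test between sets described below (adjusted p of F = 0.472). The next 6 genes were EIF3I with a male minus female difference of -0.83, EIF4G2 with 0.52, EIF3D with -0.43, EIF2S3 with 0.75, EIF4A2 with 0.67 and EEF1D with -0.67, each with an adjusted p of 0.999 and with male and female sets that overlapped. Intervals of the difference were wide: that of EIF2S3 ran from -0.37 to 1.87 and that of EEF1D from -1.80 to 0.45, so that both intervals held differences of over 2-fold.

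While the mean ratios were small, the same genes differed from set to set. A moderated F-test on the 12 arrays, with a term for first and swap array, compared the 6 sets against the spread between the 2 arrays of a set. It called 32 of 42 genes (76.2%), beside 41.0% of all genes. The standard error of 1 set's ratio in this fit was 0.07 to 0.18, while the range of the 6 sets reached 2.04 in EIF4A2. The error term is technical, so this test speaks of the pools of RNA in these sets and not of FE and SE embryos in general. Probes below background could not be recognised, since signal intensities were not analysed here.

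Slides also held different sets: male sets 1 and 2 were on slide 1, female sets 1 and 2 on slide 2, and male set 3 with female set 3 on slide 3. Slide 3 stood apart. The 42 ratios had an SD of 0.62 for male set 3 and 0.49 for female set 3, against 0.27 to 0.39 in the other sets. For all genes the SD was 0.40 and 0.37 on slide 3 and 0.22 to 0.30 elsewhere. Ratios beyond 0.5 in either direction were found for 3, 7 and 17 of 42 genes in male sets 1, 2 and 3 (3.43, 7.77 and 13.2% of all genes) and for 4, 8 and 11 in female sets 1, 2 and 3 (5.37, 8.83 and 13.3%). Within slides alone, 28 of 42 genes were called, beside 34.5% of all genes. With slide 3 left out, the 4 remaining sets called 14 of 42, beside 16.5% of all genes.

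Taken slide by slide, male set 1 differed from male set 2 for 12 of 42 genes (13.5% of all genes) and female set 1 from female set 2 for 12 of 42 (14.3% of all genes). Male set 3 differed from female set 3 for 25 of 42 (25.7% of all genes). The last pair differed in sex and in pools at once, which cannot be told apart there. The 14 genes called without slide 3 were EEF1A1, EEF1E1, EEF2K, EIF1AY, EIF2A, EIF3A, EIF3D, EIF3G, EIF3I, EIF3L, EIF4A1, EIF4E, EIF5A and EIF5B.

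**Figure D3:**
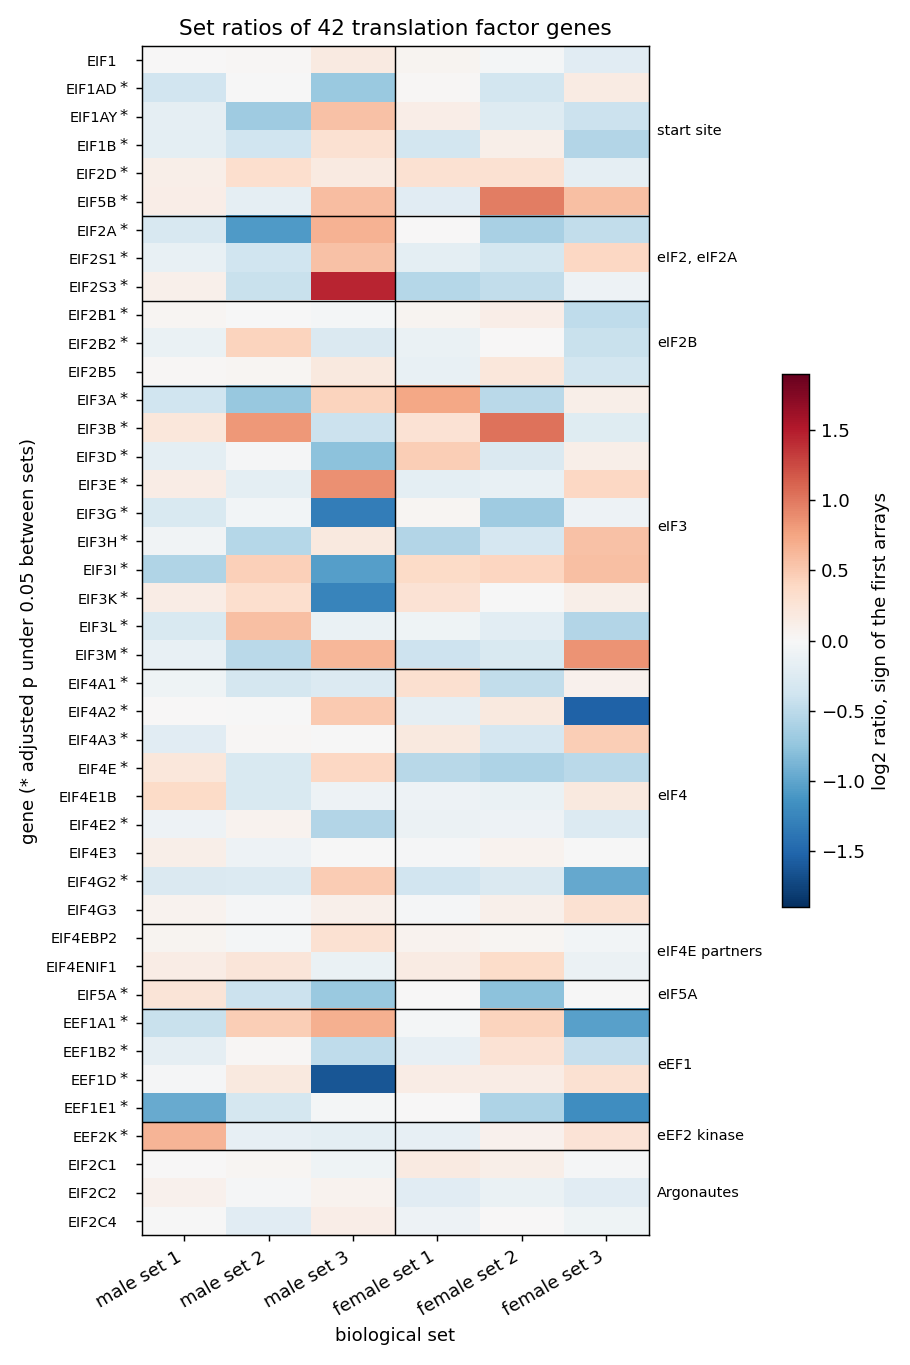
Log2 ratio (colour, sign of the first arrays) of the 42 genes in the 3 male and 3 female sets, grouped by role. An asterisk marks the 32 genes with an adjusted p under 0.05 in the F-test between sets. Male set 3 holds the deepest colours in both directions, and the Argonaute and eIF4E partner rows are pale in all sets.

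Among factors of start-site selection and ribosome joining, 6 of 9 listed genes were on the array and 5 were called between sets (41.0% of all genes). EIF5B, the GTPase that joins the large subunit, had 0.12, -0.18 and 0.58 in male sets 1, 2 and 3 and -0.21, 0.98 and 0.57 in female sets 1, 2 and 3. Female set 2 was highest, the sets of slide 3 were alike, and male set 2 and female set 1 were negative (adjusted p of F = 3.14e-05). EIF1AY, by its symbol the Y-linked copy of eIF1A, had -0.17, -0.68 and 0.55 across the male sets and 0.13, -0.24 and -0.41 across the female sets (adjusted p of F = 0.000234). Its 2 probes gave ratios in female embryos too, which carry no Y chromosome. Whether they bind the X-linked copy was not tested.

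EIF1AD, an eIF1A-like protein, had -0.36, -0.01 and -0.71 across the male sets and 0.02, -0.35 and 0.15 across the female sets. It was lowest in male set 3 and highest in female set 3, and EIF1B, a close relative of eIF1, ran the other way there, with 0.29 and -0.56. EIF1 itself, which guards the choice of the AUG codon, had a gene mean between -0.21 and 0.17 in every set and was not called (adjusted p of F = 0.159). Its 2 probes moved against each other, however, at -0.43 and 0.46 in male set 2 and at 0.24 and -0.66 in female set 3, and each probe passed in the fit over probes (adjusted p of F = 0.0236 and 0.000296). Which of them reports the gene was not tested.

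EIF2S1 codes for the alpha subunit that stress kinases phosphorylate, EIF2S3 for the gamma subunit that binds GTP and tRNA, and EIF2A for an alternative tRNA carrier outside eIF2. EIF2S3 had 0.10, -0.42 and 1.44 in male sets 1, 2 and 3 and -0.55, -0.47 and -0.10 in female sets 1, 2 and 3, the highest ratio of any of the 42 genes in any set. EIF2S1 had -0.15, -0.38 and 0.56 across the male sets and -0.19, -0.33 and 0.40 across the female sets. EIF2A had -0.30, -1.07 and 0.67 across the male sets and 0.01, -0.61 and -0.47 across the female sets. All 3 were highest in male set 3 and negative in male set 2 and female set 2. The adjusted p of F was 7.82e-06 for EIF2S3, 0.000126 for EIF2S1 and 2.46e-05 for EIF2A.

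Both probes of EIF2S3 were at 1.38 or more in male set 3, but they parted in female set 3, at 0.52 and -0.73. Within slides, EIF2S1 was not called (adjusted p = 0.181). Of the eIF2B exchange factor, 3 of 5 subunit genes were measured. EIF2B1 and EIF2B2 were called and lowest in female set 3, at -0.49 and -0.43, and the catalytic EIF2B5 had -0.35 there and was not called (adjusted p of F = 0.0528). No other eIF2B ratio was beyond 0.42 in size.

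The eIF3 complex, the largest initiation factor, holds the small subunit open for mRNA. Of 14 listed subunit genes 10 were measured, and all 10 were called between sets, beside 41.0% of all genes. Their mean ratios over the sexes were between -0.40 and 0.28 with a median of -0.07, and none passed for FE and SE. Their ratios had both signs in every set. In male set 3, 4 subunit genes were positive and 6 negative. On the positive side, EIF3E had 0.87, EIF3M 0.64, EIF3A 0.43 and EIF3H 0.19. On the negative side, EIF3G had -1.31, EIF3K -1.26, EIF3I -1.05, EIF3D -0.78, EIF3B -0.42 and EIF3L -0.12.

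EIF3M, EIF3E and EIF3H code for subunits of the octamer of PCI and MPN domain proteins that forms the body of eIF3, and EIF3A for its largest scaffold subunit. EIF3M had -0.14, -0.51 and 0.64 in male sets 1, 2 and 3 and -0.40, -0.28 and 0.85 in female sets 1, 2 and 3. It was positive in both sets of slide 3 and negative in the other 4, as was EIF3H, and EIF3E was positive in these and in male set 1. The differences of EIF3M lay between slides more than within them (adjusted p of F = 3.63e-05 over all sets and 0.107 within slides). EIF3A departed from them with -0.38, -0.73 and 0.43 across the male sets and 0.73, -0.52 and 0.11 across the female sets. Its gene mean was highest in female set 1 (adjusted p of F = 1.23e-05), where its 3 probes had 0.27, 1.15 and 0.78. The probe at 0.27 was higher in male set 3, at 0.31.

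EIF3G and EIF3I belong, with EIF3B, to the mobile module that binds near the mRNA channel, EIF3K and EIF3L form a pair at the edge of the octamer, and EIF3D can itself bind some mRNA caps. EIF3I had -0.57, 0.45 and -1.05 across the male sets and 0.36, 0.41 and 0.57 across the female sets. Male sets 1 and 3 were thus negative and the other 4 positive (adjusted p of F = 5.50e-06). EIF3K had 0.13, 0.32 and -1.26 across the male sets and 0.27, -0.01 and 0.11 across the female sets, with the 3 probes between -1.31 and -1.20 in male set 3 (adjusted p of F = 1.23e-05, and 0.248 without male set 3). EIF3G had -0.29, -0.06 and -1.31 across the male sets and 0.04, -0.68 and -0.10 across the female sets (adjusted p of F = 9.63e-05).

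EIF3B and EIF3L had their own highs. EIF3B had 0.21, 0.83 and -0.42 across the male sets and 0.27, 1.03 and -0.23 across the female sets, with slide 3 negative and the other slides positive (adjusted p of F = 0.000652). EIF3L was highest in male set 2 at 0.56 and negative in the other 5 sets, and its call ended without male set 2 (adjusted p = 0.117). EIF3D had -0.18, -0.03 and -0.78 across the male sets and 0.47, -0.27 and 0.11 across the female sets, and its 2 probes disagreed in female set 1, at 0.96 and -0.03. With slide 3 left out, 5 of the 10 subunit genes were still called (16.5% of all genes): EIF3A, EIF3D, EIF3G, EIF3I and EIF3L.

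**Figure D4:**
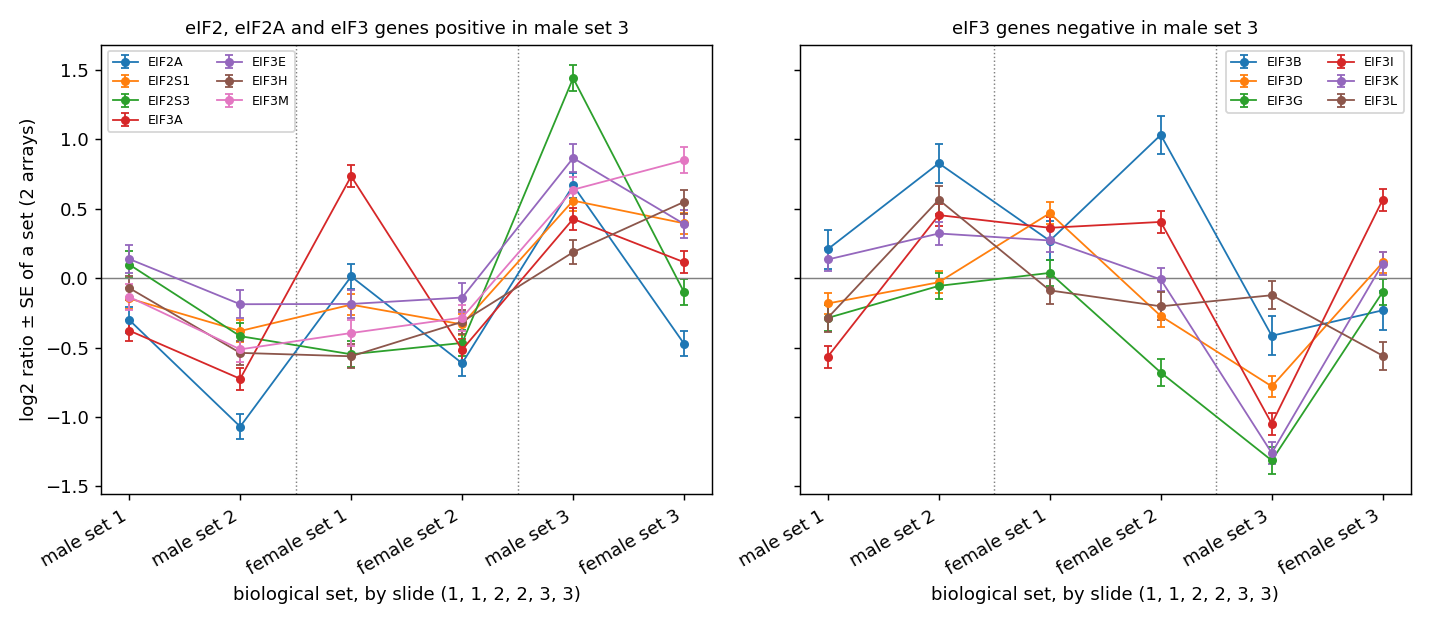
Log2 ratio ± standard error of a set (2 arrays) for the eIF2, eIF2A and eIF3 genes, with sets ordered by slide and dotted lines between slides. Lines join the values of 1 gene and imply no order of the sets. The left panel shows the 7 genes that were positive in male set 3, up to 1.44 for EIF2S3, and the right panel the 6 eIF3 genes that were negative there, down to -1.31 for EIF3G.

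Of the eIF4 cap-binding group, 9 of 12 listed genes were measured, 6 were called between sets (41.0% of all genes), and the median ratio over the sexes was -0.13. The helicase gene EIF4A2 had 0.01, -0.01 and 0.50 in male sets 1, 2 and 3 and -0.16, 0.18 and -1.53 in female sets 1, 2 and 3. Female set 3 stood alone, with its 3 probes between -2.23 and -1.07 (adjusted p of F = 2.91e-05). Its near relative EIF4A1 had 0.08 there and was highest in female set 1 at 0.31 and lowest in female set 2 at -0.47 (adjusted p of F = 0.00215). EIF4A3, a helicase of the same family that marks exon junctions, was highest in female set 3 at 0.46. The 3 helicase genes are alike in sequence, and cross-hybridisation between them was not tested.

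EIF4G2 codes for a shortened eIF4G that does not bind eIF4E and serves cap-independent initiation. It had -0.28, -0.26 and 0.48 across the male sets and -0.37, -0.28 and -0.97 across the female sets, negative in 5 of 6 sets with male set 3 the exception (adjusted p of F = 2.70e-05). The 4 sets of slides 1 and 2 lay between -0.37 and -0.26, and without slide 3 the gene was not called (adjusted p = 0.876). EIF4G3, a full-length scaffold, had 0.06, -0.02 and 0.09 across the male sets and -0.02, 0.10 and 0.29 across the female sets and was not called (adjusted p of F = 0.447). One of its 3 probes, however, had 0.50 for male set 3 and 1.13 for female set 3, while another had -0.29 and -0.11.

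Of the cap-binding proteins, EIF4E was called between sets (adjusted p of F = 9.73e-05), and so was EIF4E2, a repressive relative. EIF4E2 had -0.10, 0.06 and -0.56 across the male sets and -0.11, -0.09 and -0.26 across the female sets, lowest in male set 3. EIF4E3 stayed between -0.09 and 0.11 in every set, and EIF4E1B, the form of oocytes and early embryos, between -0.29 and 0.36. Neither was called (adjusted p of F = 0.762 and 0.328). The 2 partners measured of 4 listed, EIF4EBP2, which sequesters eIF4E until it is phosphorylated by mTOR, and EIF4ENIF1, which carries eIF4E into the nucleus, were not called either. EIF4EBP2 had 0.05, -0.04 and 0.29 across the male sets and 0.06, 0.03 and -0.06 across the female sets. Set to set, the partners thus ranged over at most 0.49, and EIF4E over 0.98. Each partner had only 1 probe, and its first and swap arrays ran together over the 6 sets with r = 0.0065 for EIF4EBP2 and 0.46 for EIF4ENIF1. Small ranges need not mean stable expression there.

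Of the eEF1 elongation genes, 4 of 6 listed were measured and all 4 were called between sets (41.0% of all genes). EEF1D, a nucleotide exchange subunit of eEF1B, had -0.03, 0.19 and -1.62 in male sets 1, 2 and 3 and 0.13, 0.13 and 0.29 in female sets 1, 2 and 3. Male set 3 alone was far from 0, and all 7 probes of the gene were between -1.83 and -1.48 there. It had the largest F of the 42 genes (adjusted p = 2.42e-06), and the call rested on that set (adjusted p = 0.276 without it). EEF1B2, the other exchange subunit measured, had -0.48 in male set 3 and -0.44 in female set 3, both below the other 4 sets (adjusted p of F = 0.00259).

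EEF1A1, which delivers aminoacyl-tRNAs and is among the most abundant proteins of a cell, had the opposite sign to EEF1D in both sets of slide 3. It had -0.42, 0.46 and 0.67 across the male sets and -0.03, 0.42 and -1.03 across the female sets. Both of its probes were lowest in female set 3, at -1.24 and -0.81, and highest in male set 3 (adjusted p of F = 2.32e-05), and the gene was called on slide 1 and slide 3 (adjusted p = 0.00225 and 1.01e-05). The mean over the sexes was 0.01 ± 0.64 (SD, n = 6 sets), so that opposite ratios cancelled. EEF1A1 has many processed copies in mammalian genomes, and whether its probes also read them was not tested.

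EIF5A, which carries the modified lysine hypusine and helps ribosomes through stalling sequences, had 0.24, -0.41 and -0.71 across the male sets and 0.00, -0.78 and -0.00 across the female sets. It differed between the 2 sets of every slide, as did EIF2A and EEF1E1 (adjusted p = 0.00488, 0.00115 and 0.0011 for EIF5A on slides 1, 2 and 3). Taken singly, these slides called 13.5, 14.3 and 25.7% of all genes, and the share called on every slide was not counted. Its 2 probes were close to each other, at -0.40 and -0.43 in male set 2 and at -0.73 and -0.84 in female set 2. EEF2K, the kinase that halts elongation by phosphorylating eEF2, was highest in male set 1 at 0.64 and between -0.19 and 0.26 in the other sets (adjusted p of F = 0.000913). The Argonaute genes ranged over 0.26 to 0.34 from set to set, and 0 of 3 were called (41.0% of all genes). Leaving them out makes the count 32 of 39.

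**Figure D5:**
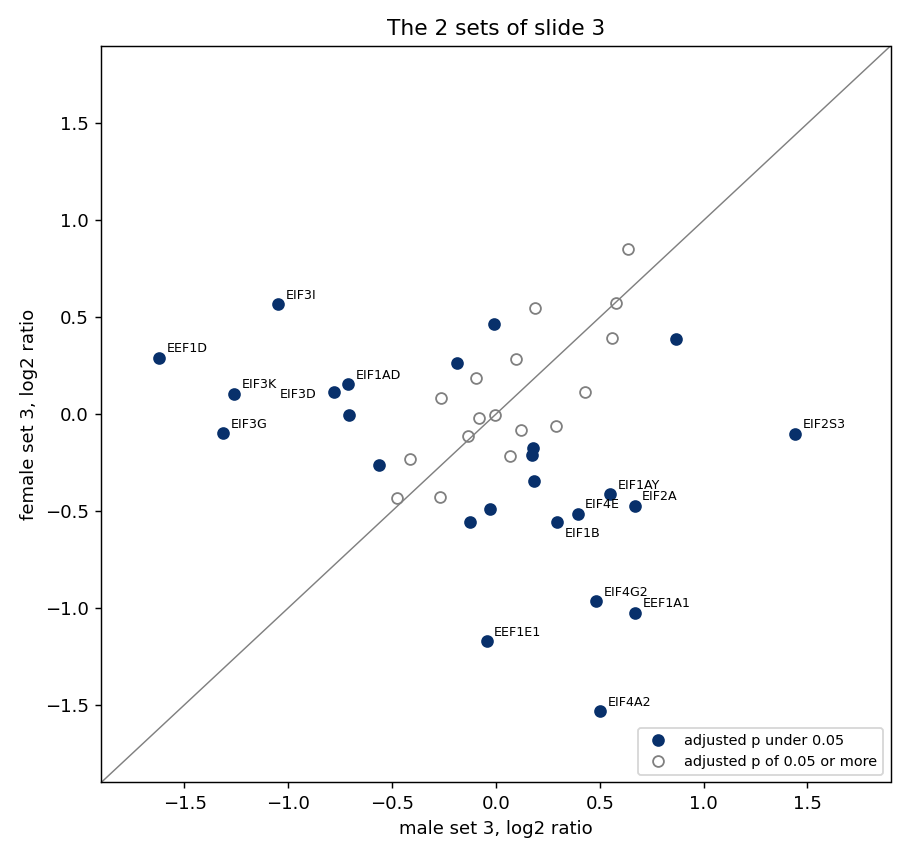
Log2 ratio of the 42 genes in male set 3 (horizontal axis) and female set 3 (vertical axis), the 2 sets of slide 3, with the line of equality. Filled points are the 25 genes that differed between the 2 sets at an adjusted p under 0.05, and names are given to the 15 genes whose difference exceeded 0.85 in size. Of these, EEF1D, EIF3K, EIF3G and EIF3I lie to the left, EIF2S3 to the right and EIF4A2, EEF1E1, EEF1A1 and EIF4G2 at the bottom.

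On slide 3 the difference between the sets was widest for EIF4A2 at 2.04, EEF1D at -1.91, EEF1A1 at 1.70, EIF3I at -1.61, EIF2S3 at 1.54, EIF4G2 at 1.45, EIF3K at -1.37 and EIF3G at -1.21 (male set 3 minus female set 3). Other genes moved with these sets. The 50 cytosolic ribosomal protein genes had a median ratio of -0.58 for male set 3 and -0.17 for female set 3, against -0.05 and 0.15 in male sets 1 and 2 and 0.04 and 0.20 in female sets 1 and 2, and 44 of 50 were called between sets (41.0% of all genes). The 42 factor genes had medians of 0.03 and -0.09 there, and in no set was it beyond 0.09 in size.

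Markers of conceptus elongation, which differ steeply with embryo stage, were lowest on slide 3 as well. Their median, over 5 of 7 listed genes, was 0.66 and -0.26 in male sets 1 and 2, -0.81 and 0.81 in female sets 1 and 2, and -2.51 and -2.05 for the sets of slide 3, and all 5 were called. The median of 11 trophectoderm markers was between -0.23 and 0.13 in every set, of 7 epiblast markers between -0.12 and 0.24 and of 7 hypoblast markers between -0.06 and 0.11. Of these, 8, 4 and 2 genes were called between sets, beside 41.0% of all genes. These medians cover members that moved far in single sets: on slide 3, the keratin genes KRT18 and KRT8 of the trophectoderm had -1.94 and -1.73 in male set 3, TFAP2C had 1.55 in female set 3, and in male set 3 DPPA5 of the epiblast list had -2.47 and APOA1 of the hypoblast list -1.30. These 5 markers were named after their values were seen. Uterine markers (4 of 7 listed) and blood markers (5 of 7) had medians of at most 0.11 in size, and none was called between sets. The part of stage or cell makeup in the factor ratios was not tested.

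Genes that act on or beside these factors were on 8 further lists, and 0 genes of any list passed for FE and SE in both sexes. The counts called between sets, given for each list, stand beside 41.0% of all genes. Of the eIF2 kinases and the stress response they start, 12 of 12 genes were measured, with a median of -0.02 and 8 called between sets. PPP1R15B, which brings the phosphatase to eIF2, had 0.12 and the kinase gene EIF2AK3 (PERK) -0.10. Of the mTOR pathway to translation, 17 of 22 were measured, with a median of 0.04 and 11 called between sets. Of the 17, 14 were positive, beside 5455 of all 11934 genes. PDCD4, an inhibitor of eIF4A, had -0.45 ± 0.69 and TSC2, an upstream brake on mTOR, 0.23 ± 0.29 (SD, n = 6 sets).

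Poly(A)-binding and helper genes (11 of 16 measured, median 0.05) were all called between sets, beside 41.0% of all genes. Of these, 2 had an unadjusted p under 0.05 for both sexes, beside 5.04% of all genes. They were TPT1 (TCTP on the platform), which encodes a growth-linked protein that binds eEF1A, with 0.39 ± 0.39, and PABPN1, the nuclear poly(A)-binding protein, with 0.18 ± 0.48 (adjusted p = 0.948 and 0.954). PABPN1 was negative in all 3 male sets (-0.23, -0.07 and -0.42) and positive in all 3 female sets (0.52, 0.48 and 0.77). Male and female sets did not overlap in 7.71% of all genes. The mean of PABPN1 over the sexes thus joins opposite ratios, and its difference between the sexes did not pass (adjusted p = 0.999). Termination and rescue genes (7 of 11, median -0.06) had GSPT2 at -0.10 and GSPT1 at -0.22, both eRF3 GTPases, and 7 were called between sets. Mitochondrial factors (5 of 10, median 0.09) were positive in 5 of 5 genes, beside 5455 of all 11934 genes, and the lowest mean was 0.0016. The release factor gene MTRF1L had 0.51 ± 0.75 and the recycling factor gene GFM2 0.16, and 5 were called between sets.

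The enzymes that make hypusine on eIF5A and diphthamide on eEF2 (6 of 9, median -0.10) were negative in 6 of 6 genes, beside 6479 of all 11934 genes. Their means ran from -0.14 to -0.00084, with DNAJC24 at -0.12 and DOHH at -0.11. All 6 were called between sets, beside 41.0% of all genes. Their median was -0.09, 0.01 and -0.57 for male sets 1, 2 and 3 and -0.00, 0.14 and -0.31 for female sets 1, 2 and 3. EIF5A was negative with them in male set 3, at -0.71, but had -0.78 in female set 2, where their median was positive. Genes of selenocysteine incorporation (6 of 7, median -0.07) included EEFSEC, the elongation factor for that amino acid, at -0.09 and SEPHS2 at -0.21, with 4 called between sets. Cytosolic aminoacyl-tRNA synthetases (17 of 22, median -0.06) were positive in 8 genes and negative in 9. DARS had -0.21 and NARS -0.27, and 16 were called between sets. EEF1E1, the scaffold gene described above, had -0.52.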

How the data were processed

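Expression of 42 translation factor genes was compared on 12 two-colour arrays, 2 for each of 6 pairs of FE and SE embryo pools. The authors deposited a log ratio for every probe on every array, read here as log2 from the range of values. Its log base, normalization, numerator channel and genome build were not given in the sources used here. Of 43794 probes, 25 with a missing value were left out. Gene symbols come from the platform table (229 updated from pig RefSeq for comparison), which names 18110 probes of 11934 genes. Probes of a gene were averaged, swap arrays were turned in sign, and the 2 arrays of a set were averaged.

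A linear model of the set ratios was run for all genes (limma version 3.58.1 under R 4.3.3, lmFit, then eBayes, a mean for each sex, 2.3 prior degrees of freedom). The contrasts were both sexes, each sex and male minus female. The 6 sets were compared by a moderated F in limma on 12 arrays with a term for array role (5.2 prior degrees of freedom). Benjamini-Hochberg adjustment was over all genes, at a threshold of 0.05, with intervals at 95%. Both fits were run on simulated data with independent sets, as a check of the code and not of the power of this design. The number of arrays limits the precision. P-values of the FE and SE contrasts and of male minus female rest on the spread between sets of pools, which share sows across the sexes. Those of the F-test and of the slide pairs rest on the technical spread between the 2 arrays of a set.

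The genes, role groups, pathway and marker lists and tests were chosen with earlier results of these data known. Full values are given for the 8 genes of smallest p in the contrast of both sexes, in male minus female and between sets, the 5 in each sex, paralogues and partners (EEF1A1, EIF5A, EIF1AY, EIF4G2, EIF4G3, EIF4E, EIF4EBP2), and mean ratios for 2 genes of each pathway list. Genes named beyond these were chosen after their values were seen. No sequences or coordinates are given, since no genome or sequence table was used here.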

Additional observations from a re-analysis of the deposited data

Results flagged for a closer look

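Single sets stood far from the other 5 for 6 of the 42 genes, by Dixon's test at its 95% critical value. Chance marks about 1 in 20 groups, and 7.56% of all 11934 genes were marked by the same test. Of the 6 genes, 4 stood out in male set 3 and 2 in female set 3, so all were on slide 3. In male set 3, the exchange factor gene EEF1D was at -1.62 with its nearest set at -0.03, the eIF3 subunit gene EIF3K at -1.26 with its nearest at -0.01, the eIF2 gamma subunit gene EIF2S3 at 1.44 with its nearest at 0.10, and the eIF4E inhibitor gene EIF4EBP2 at 0.29 with its nearest at 0.06. EIF4EBP2, with 1 probe, was not called between sets (adjusted p of F = 0.456). Its first and swap array of male set 3 were apart, at 0.11 and 0.47. In female set 3, the helicase gene EIF4A2 was at -1.53 with its nearest set at -0.16, and the eIF2B subunit gene EIF2B1 at -0.49 with its nearest at -0.03. The part of the slide, of the pools or of embryo stage in these values was not tested.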

How the results depend on the processing

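No gene of the 42 passed for FE and SE (both sexes, male, female or male minus female) under any alternative but 1. With the signs of the swap arrays not turned, 15 were called for both sexes (38.2% of all genes), 8 in male and 8 in female embryos, and the median ratio was 0.0194. Under that setting the sign changed for EEF1E1 (0.0256 for both sexes, 0.0449 in male, 0.00626 in female embryos), EIF4E (0.0697 for both sexes, 0.0546 in female embryos), EIF2C2 (0.138 in female embryos), and for male minus female for EIF2C2 (-0.209), EIF3I (0.0532) and EIF4G2 (-0.00362). EIF3G was called there at -0.29 for both sexes and in male embryos. The sign also changed for EEF1E1 in male embryos with the slide as a fixed block (0.0493) and for EIF4A2 in male minus female without slide 3 (-0.00599). With each set left out in turn, 0 genes were called in all 4 contrasts, the median lay between -0.0761 and -0.0355, and 28 to 34 genes differed between sets.

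Without slide 3, an alternative added after the data were seen, 14 genes differed between sets in place of 32 (16.5% of all genes in place of 41.0%). The calls of EEF1D, EIF3K, EIF1AD and EIF4E2 ended without male set 3 (adjusted p = 0.276, 0.248, 0.0835 and 0.248), those of EIF2B1, EIF2B2, EIF2D and EIF4A3 without female set 3 (0.732, 0.0666, 0.541 and 0.0546), and those of EIF2B2 and EIF3L without male set 2 (0.226 and 0.117). EIF2D was also not called with quantile-normalized arrays (0.0504) or single probes (0.061). Sets numbered alike in both sexes deviated with r = 0.00889, 0.380 and 0.281 over genes for sets 1, 2 and 3. Sets of unlike number had r between -0.350 and 0.0208. Set 1 was under the threshold of 0.1 while sets 2 and 3 were over it, and the number was no block in the main fit. Whether like-numbered sets came from the same sows was not tested. With the number as a replicate block (random, consensus correlation 0.125, or fixed) 0 genes were called. Without intensities, what signal over background limits could not be assessed.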
